A study of Homo sapiens with 12 samples.

Results

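The messenger RNAs of 7 translation factor genes were followed in RKO cells deprived of arginine. RKO is a human colon cancer line, labelled wild type, and all cells were kept in arginine-free medium with dialyzed serum to which arginine was added back. Fed cells had 400 uM and starved cells 12.5 uM arginine for 24 hours. Each condition was measured by RNA-seq and by ribosome profiling, in which the RNA fragments that ribosomes protect (footprints) are sequenced, with n = 3 libraries per condition and assay. The genes were taken from a list of 9 with known transcript identifiers: EEF1A1 (ENST00000309268), EEF1B2 (ENST00000236957), EEF1G (ENST00000329251), EEF2 (ENST00000309311), EIF4A1 (ENST00000293831), PABPC1 (ENST00000318607) and RACK1 (ENST00000512805) had rows with counts, while EIF4B and TPT1 are not analysed here. For EEF1A1 a second identifier on the list, ENST00000316292, had 0 counts in all 12 libraries, so only the first was used. The 7 transcripts stand among 19686 rows of the RNA table and 19849 of the footprint table.

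These proteins make up core parts of the translation machinery. EEF1A1 carries aminoacyl-tRNA to the ribosome, EEF1B2 is the nucleotide exchange subunit that recharges it, EEF1G is the partner subunit that anchors the exchange complex, and EEF2 moves the ribosome along by one codon. EIF4A1 is the RNA helicase of the cap-binding complex in initiation, PABPC1 binds the poly(A) tail, and RACK1 is a scaffold protein on the small ribosomal subunit. Many mRNAs for such proteins begin with a terminal oligopyrimidine (TOP) motif, a C at the cap followed by an unbroken run of C and T bases, through which mTORC1, a kinase that senses amino acids, controls their translation via LARP1 and related proteins.

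The first transcribed bases are shown because the TOP motif is defined by them. RefSeq start windows (build GRCh38.p14), taken by symbol, are shown for 6 of the 7 genes and not for PABPC1. Each window below runs from 10 bases before the annotated start to 20 bases from it on, and capitals mark the run of C and T bases that begins at the annotated start. Whether the counted transcripts begin at these positions in RKO cells is not given in the sources used here.
EEF1A1, chr6:73521013-73521042, minus strand: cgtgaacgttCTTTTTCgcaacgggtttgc
EEF1B2, downstream start, chr2:206159885-206159914, plus strand: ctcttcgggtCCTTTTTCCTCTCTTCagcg
EEF1B2, upstream start, chr2:206159599-206159628, plus strand: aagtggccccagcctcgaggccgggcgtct
EEF1G, chr11:62573872-62573901, minus strand: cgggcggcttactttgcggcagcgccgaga
EEF2, chr19:3985444-3985473, minus strand: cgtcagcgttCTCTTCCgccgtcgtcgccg
EIF4A1, chr17:7572815-7572844, plus strand: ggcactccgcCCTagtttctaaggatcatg
RACK1, chr5:181243887-181243916, minus strand: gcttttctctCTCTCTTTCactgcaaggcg

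The motif searched was a C exactly at the annotated start followed by at least 4 C or T bases, on the transcribed strand only. It was present for EEF1A1 with a run of 7 bases, for EEF2 with 7, for RACK1 with 9 and for the downstream start of EEF1B2 with 16. It was not matched at the upstream start of EEF1B2 or at the starts of EEF1G and EIF4A1, where the run was 3 bases long in EIF4A1. Of all 35116 RefSeq start windows, 1429 (4.07%) matched. In EEF1G the longest run that opens with C in the first 50 transcribed bases was 12 bases long and began at position 27, shown in capitals in the next window.
EEF1G, chr11:62573845-62573874, minus strand: agaaccccaCCCCCTTTCTTTgcggaatca

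RNA libraries held between 4670881 and 7967215 counts and footprint libraries between 2063952 and 4364383. Counts of the 7 transcripts lay between 3620 and 100795 per RNA library and between 654 and 38009 per footprint library. Levels are given as CPM (counts scaled to library size) with TMM factors, which align each library on the bulk of its transcripts. A change was called at an adjusted p under 0.05 by the quasi-likelihood test of edgeR, adjusted over all transcripts by Benjamini-Hochberg, and log2 fold changes compare starved with fed cells, within each assay only and on a relative scale, so fewer cells and less RNA per cell cannot be told apart. One footprint library stood apart for these genes: starved replicate 1 was the lowest of its group for 7 of 7, so changes are also given without it. The labels do not say whether replicates were separate cultures, so the p-values reflect variation among libraries that may be technical only. Most of these genes have processed pseudogenes or close paralogs, and how shared reads were assigned is not given in the sources used here.

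Relative to the bulk of transcripts, ribosome footprints in starved cells rose on EEF1A1, EEF1B2 and EEF1G and fell on EEF2 and EIF4A1. RACK1 was called higher in footprints under some settings only, while RNA changes were small except for EEF2. These counts do not give total translation per cell, so the number of ribosomes per cell on a transcript is not known. Of the 7 transcripts, 4 were called higher and 2 lower in footprints, against 18.9% higher and 20.9% lower over all 13457 transcripts tested. Only 3 were higher in DESeq2's Wald test, with the replicate block, without a filter on low counts and without any single footprint library other than starved replicate 1, since the RACK1 call was lost. In RNA 1 was called higher and 2 lower, against 33.8% higher and 34.1% lower of all 11572, so RNA calls were no more frequent in this group than elsewhere. With library totals alone 0 of the 7 were higher and 3 lower in RNA, beside 3189 higher and 4677 lower of all transcripts, against 3911 and 3951 with TMM factors. Without RNA fed replicate 1 or 2, or starved replicate 1 or 3, the RNA counts were 1 higher and 1 lower, since the EEF1B2 call was lost. Efficiency of translation here means footprints per RNA, tested by an assay-by-treatment interaction term. It comes from a joint fit with its own TMM factors, and its values lie somewhat above those given by the ratios of levels below. Among the 7, 3 had a called rise and 1 a called fall, against 11.1% higher and 11.7% lower of 11027. With the abundance trend removed 2 were higher and 1 lower, since the EEF1A1 call was narrowly lost. By level in this fit the 7 ranked between 3 and 142 of 11027, so most transcripts behind these shares had fewer counts. Shares among equally abundant transcripts were not computed. Efficiency reflects ribosomes present per RNA and not protein made. Whether ribosomes started more often or moved more slowly along these transcripts was not tested. The median log2 fold change of the 7 was −0.05 in RNA, 0.34 in footprints and 0.15 in efficiency, beside −0.01, 0.05 and −0.02 over all transcripts tested. The groups did not overlap for 6 of 7 in footprints (50.7% of all tested) and for 5 of 7 in RNA (69.8% of all tested).

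**Figure D1:**
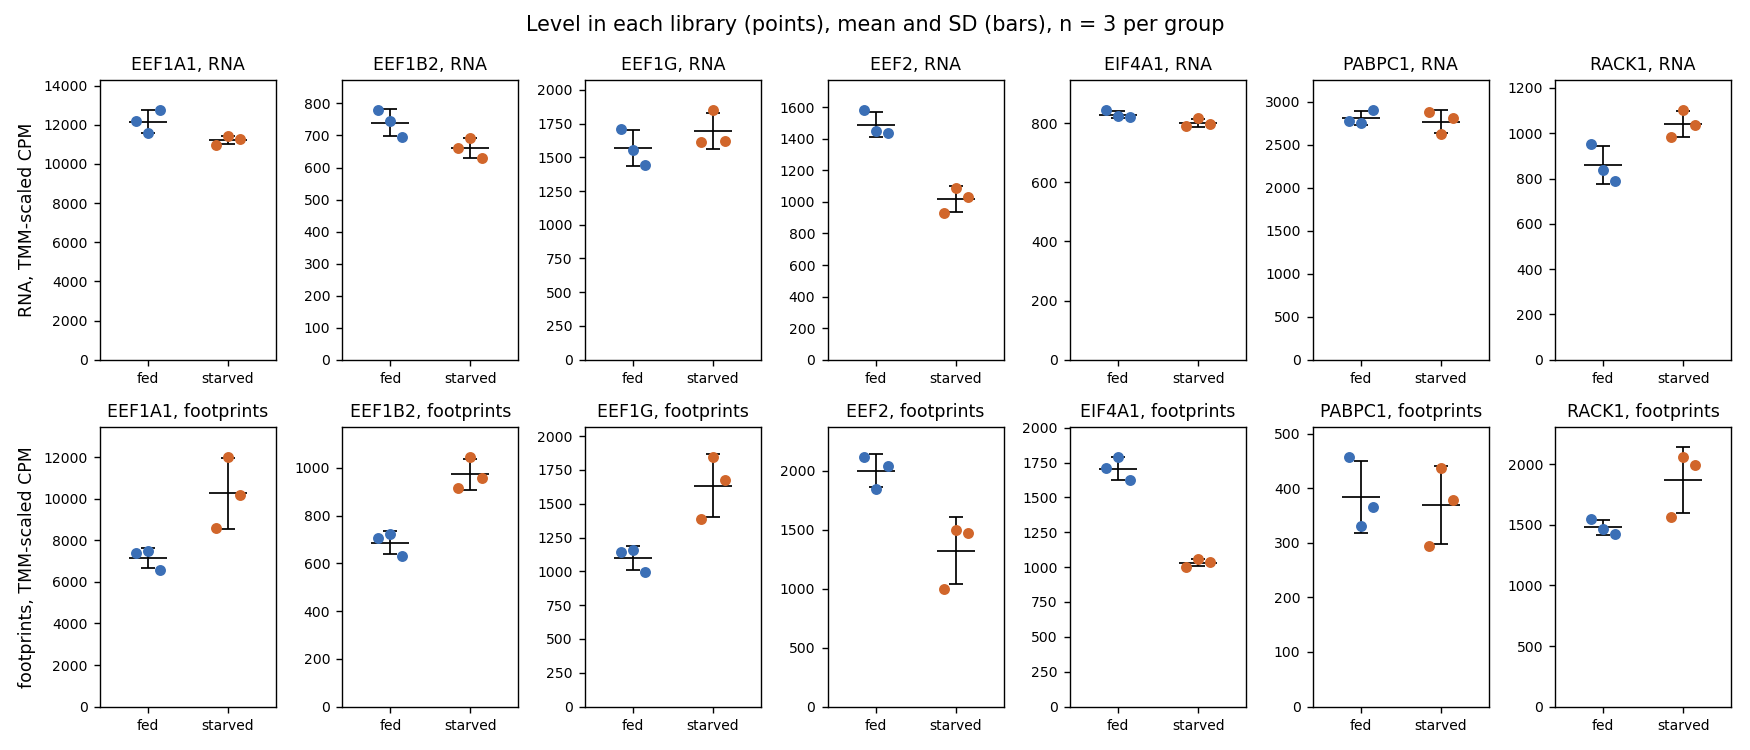
TMM-scaled CPM of the 7 transcripts in each RNA library (top) and footprint library (bottom), fed in blue and starved in orange, with the mean and SD of n = 3 libraries and each axis starting at 0. Footprint points of starved cells lie above all fed points for EEF1A1, EEF1B2, EEF1G and RACK1 and below them for EEF2 and EIF4A1, while those of PABPC1 overlap.

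EEF1A1 gained footprints without a called change of RNA. Its RNA level was 12179.5, 11587 and 12738 CPM in fed replicates 1 to 3 and 10975, 11404 and 11284 CPM in starved replicates 1 to 3. The starved libraries were all a little below the fed ones, but the log2 fold change of −0.12 (SE 0.10) did not pass the test (edgeR adjusted p = 0.316). The size of this change depended on the scaling. It was 0.0023 after a smooth trend on abundance was subtracted in every library. With library totals alone it was −0.23 and narrowly not called (edgeR adjusted p = 0.0563). Footprints on EEF1A1 stood at 7409, 7476 and 6587 CPM in fed and 8590.1, 11998 and 10197 CPM in starved replicates. The starved footprint libraries were all above the fed ones and spread more widely, with a log2 fold change of 0.52 (edgeR adjusted p = 0.00501, SE 0.12). The ratio of mean footprint to mean RNA CPM went from 0.588 to 0.915, and efficiency rose by 0.72 on the log2 scale (edgeR adjusted p = 0.00198, SE 0.15). Of all 11027 transcripts tested, 89.4% had a lower efficiency change. Without starved footprint replicate 1 the EEF1A1 changes were 0.61 in footprints and 0.79 in efficiency. Without starved footprint replicate 2 they were smaller, at 0.39 and 0.61, and still called (edgeR adjusted p = 0.0226 and 0.00624). With the abundance trend subtracted, the EEF1A1 efficiency change of 0.48 narrowly missed the threshold (edgeR adjusted p = 0.0505).

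EEF1B2, the exchange subunit, was called in opposite directions in the assays. EEF1B2 RNA was 779, 745 and 696 CPM in fed and 661, 691 and 628 CPM in starved replicates 1 to 3. This was a small drop, with the lowest fed and the highest starved library only just apart, and a log2 fold change of −0.16 (edgeR adjusted p = 0.0409, SE 0.07). The RNA call was close to the threshold. It was lost without fed replicate 1 (−0.12, edgeR adjusted p = 0.125) or 2 (−0.15, edgeR adjusted p = 0.147). It was also lost without starved replicate 1 (−0.16, edgeR adjusted p = 0.0748) or 3 (−0.12, edgeR adjusted p = 0.24). Footprints on EEF1B2 reached 705, 721 and 631 CPM in fed and 915, 1044 and 958 CPM in starved replicates. Each starved library lay above each fed one, and the log2 fold change was 0.50 (edgeR adjusted p = 0.00286, SE 0.11). Efficiency rose by 0.75 (edgeR adjusted p = 0.000251, SE 0.12), from a ratio of 0.927 to 1.47, and 90.1% of all transcripts tested had a lower change. The EEF1B2 values without starved footprint replicate 1 were 0.52 in footprints and 0.75 in efficiency.

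EEF1G, the anchoring subunit, also gained footprints while its RNA stayed within the replicate spread. RNA of EEF1G was 1708, 1557 and 1441 CPM in fed and 1613, 1848 and 1618 CPM in starved replicates 1 to 3. The groups overlapped, and the log2 fold change of 0.11 (SE 0.08) was not called (edgeR adjusted p = 0.228) and was −0.0020 with library totals alone. EEF1G footprints measured 1142, 1158 and 996 CPM in fed and 1384, 1844 and 1676 CPM in starved replicates. All starved libraries exceeded the fed ones, by a log2 fold change of 0.57 (edgeR adjusted p = 0.00301, SE 0.12). Efficiency rose by 0.55 (edgeR adjusted p = 0.0117, SE 0.15), from a ratio of 0.700 to 0.966. Leaving out starved footprint replicate 1 gave 0.66 for EEF1G footprints and 0.61 for its efficiency. Leaving out starved footprint replicate 2 instead gave 0.48 and 0.46, both still called (edgeR adjusted p = 0.0144 and 0.0298). Without a filter on low counts the EEF1G efficiency change was 0.45 and only just called (edgeR adjusted p = 0.0468).

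EEF2, the translocase, fell in both RNA and footprints. Its RNA was 1580.2, 1450.1 and 1439 CPM in fed and 930.4, 1090.4 and 1032 CPM in starved replicates 1 to 3. Every starved library was well below the fed ones, with a log2 fold change of −0.55 (edgeR adjusted p = 6.01e-09, SE 0.08), and 20.3% of all RNA tested had a lower value. EEF2 footprints were 2115, 1848 and 2043 CPM in fed and 996, 1500.0 and 1475 CPM in starved replicates. Starved replicate 1 was far below the other two, yet the highest starved library also stayed under the lowest fed one. The footprint log2 fold change was −0.60 (edgeR adjusted p = 0.00657, SE 0.15), and −0.45 (edgeR adjusted p = 0.00298) without starved replicate 1. The efficiency difference of 0.04 (SE 0.16) did not pass the test (edgeR adjusted p = 0.905), with ratios of 1.34 in fed and 1.30 in starved cells, and it was 0.17 without starved footprint replicate 1. The efficiency fit takes its TMM factors, still within each assay, from the transcripts tested in both. For every gene its value was thus shifted upward, by a similar amount, from the change in the ratio of levels. Rises in efficiency are larger and the fall of EIF4A1 is smaller than those ratios give, and near 0 the sign can differ. The SE of the EEF2 efficiency difference leaves room for a change in either direction.

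EIF4A1, the initiation helicase, lost footprints without a called change of RNA under TMM scaling. RNA of EIF4A1 varied little between replicates, at 844, 824 and 821 CPM in fed and 789.6, 817 and 799 CPM in starved replicates 1 to 3. The log2 fold change of −0.05 (SE 0.07) was not called with TMM factors (edgeR adjusted p = 0.557), but with library totals alone it was −0.16 and called (edgeR adjusted p = 0.047). That scaling moves the median RNA change of all transcripts from −0.01 to −0.12. Footprints on EIF4A1 dropped from 1709, 1788 and 1623 CPM in fed to 1004, 1055 and 1038 CPM in starved replicates 1 to 3. Both groups were tight and far apart, and starved replicate 1 lay close to the other two. The footprint log2 fold change was −0.72 (edgeR adjusted p = 0.000116, SE 0.10), and the ratio to RNA went from 2.06 to 1.29. Efficiency fell by 0.59 on the log2 scale (edgeR adjusted p = 0.00097, SE 0.11), and 8.34% of all transcripts tested had a lower change. Without starved footprint replicate 1 the EIF4A1 changes were −0.73 in footprints and −0.61 in efficiency. The efficiency change ranged from −0.69 to −0.47 over all alternatives tried, with edgeR, limma or DESeq2 adjusted p of at most 0.00492.

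PABPC1, which binds poly(A) tails, showed no called change. PABPC1 RNA was 2772, 2753 and 2898 CPM in fed and 2873, 2617 and 2806 CPM in starved replicates 1 to 3. Its footprints came to 457, 330.0 and 365 CPM in fed and 295, 436 and 378 CPM in starved replicates. Fed and starved libraries overlapped in both assays. The log2 fold changes were −0.02 in RNA (edgeR adjusted p = 0.829, SE 0.08), −0.06 in footprints (edgeR adjusted p = 0.802, SE 0.16) and 0.04 in efficiency (edgeR adjusted p = 0.882, SE 0.17). Without starved footprint replicate 1 they were 0.056 in footprints and 0.14 in efficiency, neither called.

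RACK1, the scaffold of the small subunit, was called modestly higher in both assays, but each call was lost under some alternatives. RACK1 RNA was 951, 839.9 and 788 CPM in fed and 986, 1101 and 1036 CPM in starved replicates 1 to 3. The starved libraries lay above the fed ones, with a log2 fold change of 0.28 (edgeR adjusted p = 0.00122, SE 0.08). With library totals alone it was 0.16 and not called (edgeR adjusted p = 0.0654). RACK1 footprints were 1547, 1462 and 1426 CPM in fed and 1562, 2058 and 1994 CPM in starved replicates. Starved replicate 1 barely exceeded the highest fed library, whereas the other two were clearly above it. The footprint log2 fold change of 0.34 (edgeR adjusted p = 0.0379, SE 0.12) was 0.43 without starved replicate 1 (edgeR adjusted p = 0.00238), but the call was lost on leaving out any other single footprint library (0.26 to 0.37, edgeR adjusted p from 0.0696 to 0.157). It was also lost with the replicate block (0.33, edgeR adjusted p = 0.0865), without a filter on low counts (0.30, edgeR adjusted p = 0.0882) and with the Wald test of DESeq2 (0.33, adjusted p = 0.0623). Efficiency differed by 0.15 (SE 0.14), which was not called (edgeR adjusted p = 0.49), and by 0.22 without starved footprint replicate 1.

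**Figure D2:**
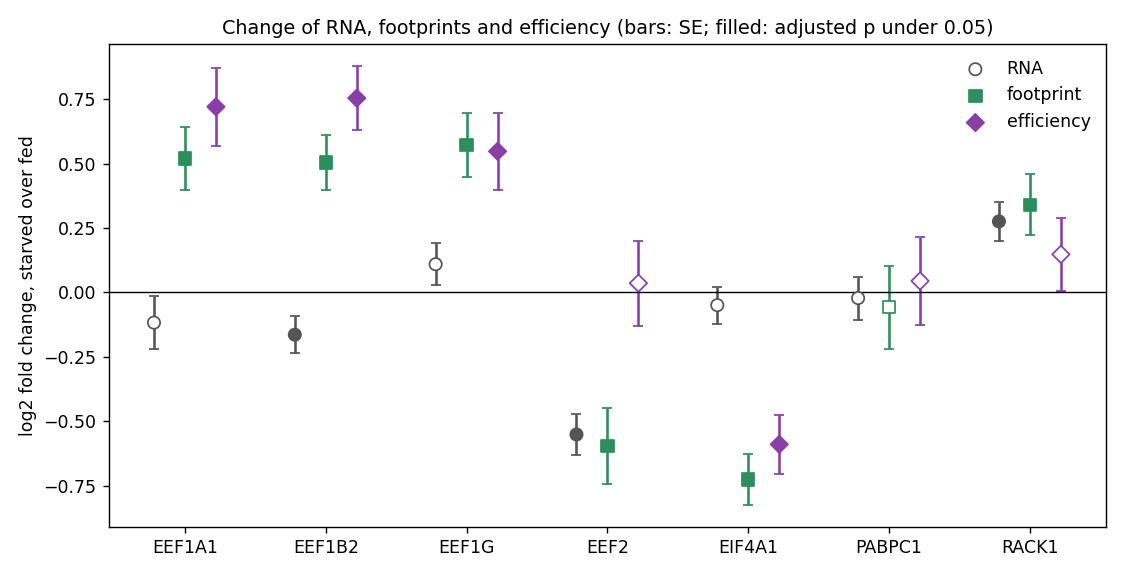
Log2 fold change (starved over fed) of RNA, footprints and efficiency for each gene, with SE bars from edgeR and filled symbols for an adjusted p under 0.05. Efficiency lies between 0.55 and 0.75 for the elongation factor 1 subunits, at −0.59 for EIF4A1 and near 0 and uncalled for EEF2 and PABPC1.

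Efficiency changes differed among genes that matched the TOP motif at the annotated start, and also among genes that did not. Among genes with a match, EEF1A1 (0.72) and EEF1B2 (0.75, at one of its starts) were called higher, while EEF2 (0.04) and RACK1 (0.15) were not called. Of the genes without one, EEF1G was called higher (0.55) and EIF4A1 lower (−0.59). EEF1A1 and EEF2 have matched runs of equal length, 7 bases. With 6 genes this is a description of the list and was not tested. The starts used in RKO cells are not known here, so the grouping holds for annotated starts only.

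**Figure D3:**
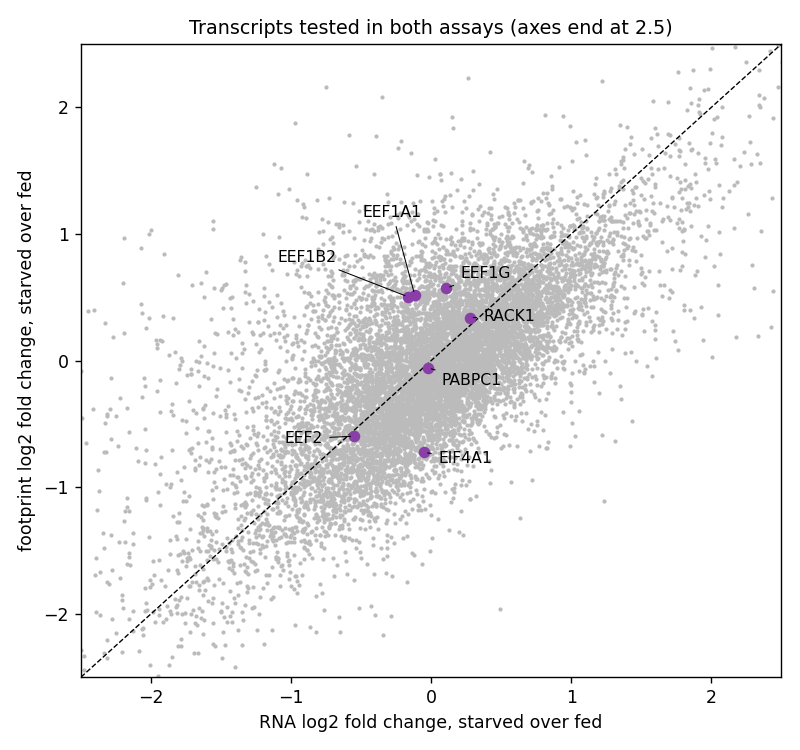
RNA log2 fold change (x axis) against footprint log2 fold change (y axis), starved over fed, for the 11027 transcripts tested in both assays (grey) with the 7 translation factors labelled; 140 transcripts lie beyond the axes. EEF2, PABPC1 and RACK1 sit near the dashed line of equal change, EEF1A1, EEF1B2 and EEF1G above it and EIF4A1 below it.

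Ratios of counts within one library do not depend on the scaling between libraries, so each gene was also set against EEF1A1. These ratios compare libraries with each other and do not give the relative amounts of 2 genes, since counts were not scaled by transcript length. Among footprints, EIF4A1 had 23.1, 23.9 and 24.6 counts per 100 EEF1A1 counts in fed replicates 1 to 3 against 11.7, 8.79 and 10.2 in starved replicates. For EEF2 the same footprint ratio was 28.5, 24.7 and 31.0 in fed and 11.6, 12.5 and 14.5 in starved libraries. Both ratios were lower in every starved library than in any fed one, by a wide margin. EEF1A1 footprints were themselves called higher (log2 fold change 0.52), which by itself lowers footprint ratios to them in starved libraries. The genes' own footprint changes were −0.72 for EIF4A1 and −0.60 for EEF2. In RNA the EIF4A1 ratio was 6.93, 7.11 and 6.44 in fed and 7.19, 7.16 and 7.08 in starved libraries, so the groups overlapped. The EEF2 ratio in RNA dropped from 12.97, 12.5 and 11.3 to 8.48, 9.56 and 9.14, also without overlap.

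Footprint ratios of the other elongation factor 1 subunits to EEF1A1 did not separate fed from starved cells. EEF1B2 had 9.52, 9.65 and 9.58 footprint counts per 100 of EEF1A1 in fed and 10.7, 8.70 and 9.40 in starved replicates 1 to 3. EEF1G had 15.4, 15.5 and 15.1 in fed and 16.1, 15.4 and 16.4 in starved replicates. In both cases fed and starved libraries overlapped. PABPC1 footprints went from 6.16, 4.41 and 5.55 to 3.43, 3.63 and 3.71 per 100 EEF1A1 counts, with no overlap, although its own change was not called. In RNA, by contrast, the EEF1G ratio was 14.02, 13.4 and 11.3 in fed and 14.7, 16.2 and 14.3 in starved replicates 1 to 3, without overlap. The RACK1 ratio in RNA was also higher in every starved library, at 8.98, 9.66 and 9.18 against 7.80, 7.25 and 6.19 in fed ones. RNA ratios of EEF1B2 (5.46 to 6.43 in fed and 5.57 to 6.06 in starved libraries) and PABPC1 (22.7 to 23.8 and 22.9 to 26.2) overlapped. RACK1 footprint ratios lay between 19.6 and 21.7 in fed and between 17.2 and 19.6 in starved libraries and touched at the border.

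**Figure D4:**
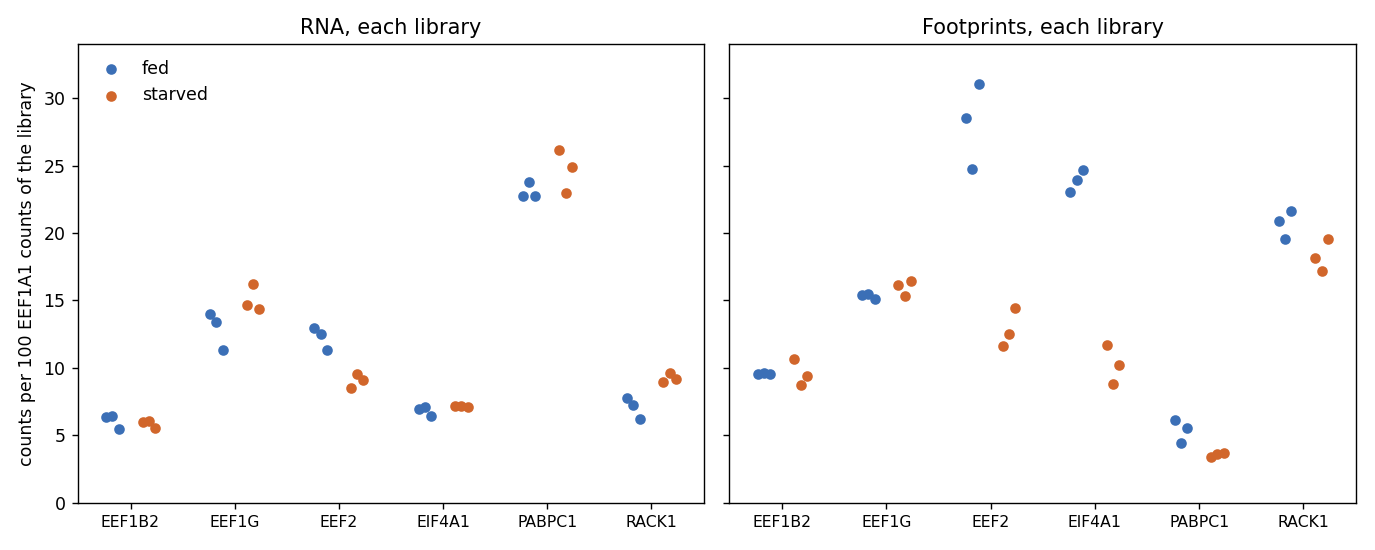
Counts of each gene per 100 EEF1A1 counts of the same library, in RNA (left) and footprints (right), fed in blue and starved in orange, one point per library. Footprint ratios of EEF2 and EIF4A1 separate widely between fed and starved libraries, and those of EEF1B2 and EEF1G overlap. EEF1A1 footprints were themselves called higher in starved cells.

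Together the 7 transcripts took 2.16, 2.06 and 2.16% of all RNA counts in fed replicates 1 to 3 against 1.80, 1.92 and 1.82% in starved replicates. Their share of footprints was 1.50, 1.42 and 1.33% in fed and 1.49, 1.99 and 1.81% in starved replicates. The RNA share was lower in every starved library, while footprint shares overlapped through starved replicate 1. With library totals, as used for these shares, the median log2 fold change over all transcripts was −0.12 in RNA and 0.10 in footprints. EEF1A1 made up 58.5, 58.6 and 61.2% of the RNA counts of the 7 in fed libraries and 58.3, 58.3 and 58.8% in starved ones. Among their footprints it made up 49.1, 50.6 and 48.2% in fed and 58.3, 60.2 and 57.6% in starved libraries. The make-up of this group thus moved toward EEF1A1 in footprints, with the part of EIF4A1 going from 11.3, 12.1 and 11.9% to 6.81, 5.29 and 5.86%.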

How the data were processed

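RNA-seq and ribosome profiling libraries of fed and starved RKO cells (n = 3 each, 12 in all) were analysed from whole-number counts per Ensembl transcript, deposited by the authors in 1 table per assay without normalization. Per the labels' protocols, RNA libraries used a TruSeq kit and RiboCop removed ribosomal RNA. Tools named, per the submitters' processing notes, were STAR, cutadapt, DESeq2 and UMI-tools, with the build GRCh38.p13. Which region of a transcript was counted, and how, is not given in the sources used here, so shares and ratios of counts were compared between libraries and not read as relative amounts of genes. Samples were grouped by their titles.

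Counts were fitted with edgeR 4.0.16 in R 4.3.3 (filterByExpr, TMM, quasi-likelihood F test, two-sided): RNA and footprints separately with treatment as the only term, and efficiency as the interaction over all 12 libraries, with factors from each assay. The SE is the log2 fold change over the root of F. CPM refers to the counts of tested rows, at least 98.9% of each library. Alternatives were DESeq2 1.42.0 size factors and Wald test, limma 3.58.1 (voom), library totals, an abundance trend removed (loess span 0.3), no filter, a replicate block and leaving out each library. No replicate pair was identical, and chi-square per degree of freedom was 2.07 to 7.73. The named genes are all members with counts. They and all lists were chosen with earlier results of these data known. Other translation genes and colon markers were not analysed here, since 0 of 19849 identifiers matched the gene tables. Sequences are from RefSeq.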

Additional observations from a re-analysis of the deposited data

Results flagged for a closer look

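EEF1B2 was the one gene of the 7 whose RNA and footprints were called in opposite directions, which marks it for a closer look. Its RNA fell by 0.16 and its footprints rose by 0.50 on the log2 scale, and the interaction was 0.75 (edgeR adjusted p = 0.000251). The interaction comes from a joint fit with other TMM factors and is somewhat larger than the difference of these changes. Over all alternatives the efficiency change stayed between 0.65 and 0.90, while the RNA call was lost in 4 of the 6 fits that left out an RNA library.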

How the results depend on the processing

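Of 322 values of single genes under an alternative, 289 kept their direction and their side of the threshold, 14 lost a call, 1 gained one and 18 changed sign. No sign change concerned a called value. With the abundance trend removed the RNA change of EEF1A1 was 0.0023 and the footprint change of PABPC1 0.086; with library totals the RNA change of EEF1G was −0.0020; without a filter on low counts efficiency changes were −0.061 for EEF2 and −0.055 for PABPC1. Leaving out 1 library at a time, PABPC1 ranged from −0.045 to 0.023 in RNA, from −0.19 to 0.082 in footprints and from −0.075 to 0.20 in efficiency, and EEF2 efficiency from −0.050 to 0.17. Library totals gave 1567 transcripts with higher and 803 with lower efficiency, against 1227 and 1292 with TMM factors. Whether the replicate numbers pair the libraries is not known. Same-numbered fed and starved libraries correlated in their deviations from the group means at −0.01 to 0.10 in RNA and −0.21 to −0.02 in footprints. Same-numbered RNA and footprint libraries correlated at −0.02 to 0.02 in fed and −0.01 to 0.13 in starved cells. With n = 3 libraries per group these values cannot decide the pairing. With the replicate number as a block, 3 RNA, 5 footprint and 4 efficiency changes of the 7 genes were called, against 3, 6 and 4; the call lost was the footprint change of RACK1 (0.33, edgeR adjusted p = 0.0865), which was also lost without a filter (0.30, edgeR adjusted p = 0.0882) and with the Wald test of DESeq2 (adjusted p = 0.0623). Causes of these shifts were not tested. Every footprint library held fewer counts than any RNA library, and the part of depth in the errors was not tested.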
